A study of Mus musculus with 2 samples.

Results

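Translation initiation and elongation factors are the proteins that bring a ribosome to the start codon of an mRNA and then move it along the coding sequence. The genes described here were the protein-coding genes of the GENCODE M21 basic annotation whose symbols begin with Eif followed by a digit from 1 to 6 or with Eef followed by 1 or 2. There were 68 of them among 21938 protein-coding genes on the nuclear chromosomes, 55 named as initiation factors (eIF) and 13 as elongation factors or their modifying enzymes (eEF). A gene was counted as bound when the summit of a YY1 peak lay within 1000 bp of the start of any of its transcripts. The rule used symbols and no measured value, but the set was proposed with earlier results of these data known.

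The study profiled the zinc finger transcription factor YY1 by chromatin immunoprecipitation and sequencing in mouse muscle stem cells (MuSCs), the cells that rebuild damaged muscle fibers. The MuSCs were mixed from 20 Ctrl mdx mice, which carry the dystrophin mutation of this muscular dystrophy model, are wild-type for Yy1 (Yy1 +/+) and bear Pax7 CreERT2/R26YFP, a tamoxifen-dependent recombinase expressed from Pax7 with a fluorescent reporter by which the cells were sorted. Ctrl mice received tamoxifen like the knockouts of the study. The mdx parent strain was C57BL/10 ScSn DMDmdx, while the background of the cross and the age at this assay are not given in the sources used here. The GEO labels describe cultured and wild-type cells where the text of the study describes freshly isolated mdx cells, and the comparison library is an input in the labels and an IgG precipitate in the study's reporting form. There was 1 YY1 library and 1 background library, so no value below has a replicate error and no group comparison could be tested.

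At initiation, eIF2 delivers the initiator tRNA, eIF3 holds the small ribosomal subunit, and the eIF4 proteins recognise the cap of the mRNA and unwind its leader, while eIF1, eIF1A and eIF5 govern which codon is accepted. During elongation, eEF1A carries aminoacyl-tRNA to the ribosome, the eEF1B subunits recharge it with GTP, and eEF2 moves the ribosome by a codon. YY1 binds DNA as an activator or repressor, often close to transcription starts, and its recognition sequence contains the letters ATGGC. Many of these genes are needed in every growing cell, although the set also holds tissue-restricted and Y-linked copies and stress kinases, and muscle stem cells are known to hold protein synthesis low while they are quiescent.

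The peak list held 4681 peaks, and the number of ChIP fragments at each summit could be recovered from it. A summit had at least 8 fragments. The background expected at a summit, scaled to the YY1 library, took its most frequent value of 1.54 fragments at 1370 peaks (29.3%), where 8 fragments gave a fold enrichment of 3.55. A fold enrichment here is the fragments plus 1 over the background plus 1. A list of peaks carries no expression, so the identity of the cells could not be checked against marker genes.

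Of the 68 genes, 35 were bound by YY1, or 51.5% (95% exact binomial interval, 39.0 to 63.8), against 4119 of all 21938 protein-coding genes, or 18.8% (18.3 to 19.3). These intervals cover counting error only, and genes that share a promoter share a summit. The share was 52.7% for the initiation factors (29 of 55) and 46.2% for the elongation group (6 of 13). With a fold enrichment of at least 5, 21 of the 68 (30.9%) had a promoter peak, against 11.1% of all protein-coding genes. Among the bound genes themselves the peaks were of ordinary height, with a median fold enrichment of 5.13 in the 35 genes and 5.13 in all 4119 bound coding genes.

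By role, the counted share was highest for the cap-binding complex and its helicases (10 of 12) and for the Eif1 genes grouped under start-codon selection (4 of 5, or 3 of 4 without Eif1ad). It was lowest for the eIF2 ternary complex, the eIF2 kinases and the group of eIF4E inhibitors with their transporter (1 of 4 each). At 25%, these groups were not below the 18.8% of all coding genes. The single eEF2 gene was not bound. The groups are small: the exact interval ran from 51.6 to 97.9% for the cap-binding complex and from 0.631 to 80.6% for the ternary complex, and the differences between roles were not tested.

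**Figure D1:**
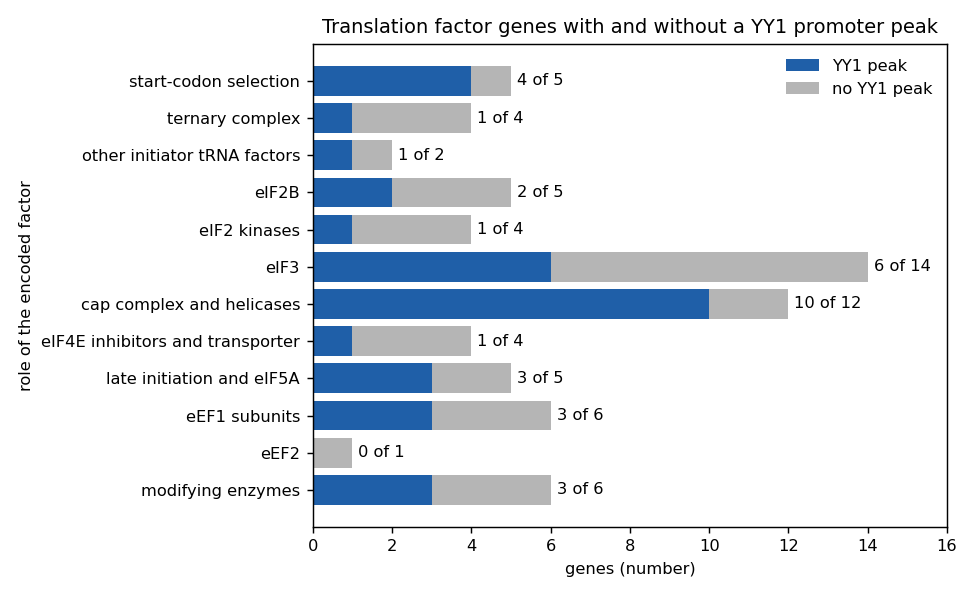
Bars give the number of translation factor genes in each role group (horizontal axis, genes), with the blue portion the genes bound by YY1 and the grey portion those not bound. Bound genes make up 10 of 12 in the cap complex and helicases, 6 of 14 in eIF3 and 1 of 4 in the ternary complex.

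The Eif1 genes, grouped by symbol under start-codon selection, were bound at 4 of 5 (80%, 28.4 to 99.5, against 18.8% of all coding genes). Eif1ad, which encodes a nuclear protein related to eIF1A and is not itself a factor of start-codon choice, had the highest fold enrichment of all the translation factor genes, 9.07, from 26 fragments over a background of 1.98. Its peak (chr19:5366337-5367177 in mm10, which is GRCm38, q = 1.86e-16) had its summit 136 bp downstream of the start in the UTR exon, and 97.9% of bound coding genes had a lower fold. The peaks of Eif1, Eif1b and Eif1a, which encode the factors that scan for the codon, were lower, and with Eif1ax these genes were bound at 3 of 4. Eif1 had a fold of 5.71 with 16 fragments, and its peak held the largest share of 32-base stretches that recur in the genome, above the 12.9% of the Eif3c peak and the 6.79% of the Eef1g peak. The part of such repeats in the signal was not tested, and the median over the 36 promoter peaks was 0%. Eif1b had a fold of 4.37 with 12 fragments, and the autosomal Eif1a a fold of 3.86 with 10 fragments 239 bp upstream of its start on chromosome 18 (q = 0.00964). The X-linked Eif1ax was not bound, and its nearest summit lay 117 kb away, by Rps6ka3.

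The genes of eIF2 and of the other initiator tRNA factors were bound at 2 of 6 (33.3%, 4.33 to 77.7), an interval that takes in the 18.8% of all coding genes. Of the 4 subunit genes of eIF2, the GTPase complex that carries that tRNA, only Eif2s1, for the subunit whose phosphorylation curbs translation, had a promoter peak. It lay at chr12:78861461-78861720 with a fold of 3.53, 13 fragments over a background of 2.96 and q = 0.00737, and its summit was 263 bp upstream of the start. Eif2s2 and the X and Y copies of the gamma subunit gene, Eif2s3x and Eif2s3y, were not bound. Eif2a, which encodes a separate factor able to deliver the initiator tRNA, was bound with a fold of 3.54 from 20 fragments over a background of 4.94 (chr3:58525508-58526045, q = 3.28e-04, summit at +66 bp), while Eif2d was not. The median background at bound coding genes was 1.98, so that 20 fragments gave a low fold here. The summits of both bound genes lay nearer to a neighbour's start, Atp6v1d at 82 bp for Eif2s1 and Serp1 at 5 bp for Eif2a.

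The exchange factor eIF2B, which reloads eIF2 with GTP, was bound at 2 of its 5 subunit genes (40%, 5.27 to 85.3), and this interval also takes in the 18.8%. Eif2b4 had a fold of 8.68 from 21 fragments over 1.54 (chr5:31192827-31193443, q = 2.35e-13), with its summit at +55 bp, and Eif2b3 a fold of 5.71 from 16 fragments at +73 bp. Eif2b1, Eif2b2 and Eif2b5 had no summit within the window. Among the 4 kinases that phosphorylate eIF2 under stress, the gene of the endoplasmic reticulum kinase PERK, Eif2ak3, was bound, with a fold of 7.49 from 18 fragments and a peak 823 bp wide. The genes of the other kinases, Eif2ak1, Eif2ak2 and Eif2ak4, were not, and their nearest summits lay 85.4, 47.1 and 307 kb away.

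eIF3, the largest initiation factor, was bound at 6 of its 14 genes (42.9%, 17.7 to 71.1, against 18.8% of all coding genes, which lies within the interval). These were Eif3a to Eif3f in alphabetical order, whereas Eif3g, Eif3h, Eif3i, Eif3j1, Eif3j2, Eif3k, Eif3l and Eif3m had no promoter summit. In the octamer that forms the body of the complex, made of subunits a, c, e, f, h, k, l and m, 4 of 8 genes were bound, and among the remaining genes 2 of 6 (b and d). This division was chosen after the values were seen. Eif3b, for the scaffold of the peripheral module, had the highest fold of them, 8.28 from 20 fragments over 1.54 (chr5:140418932-140419680, q = 2.75e-12), with the summit in a coding exon at +139 bp. Eif3d, whose product can bind the cap of some mRNAs, followed with 7.39 from 21 fragments and Eif3f with 7.06 from 20. Eif3a and Eif3c, for the largest core subunits, had folds of 4.92 and 4.70 with 13 fragments each. Eif3e was lowest with 4.04 from 15 fragments (chr15:43282669-43282883, q = 4.51e-04), its summit 3 bp upstream of the start.

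All of the RNA helicase and scaffold genes of the eIF4 group were bound, 3 of 3 for Eif4a and 3 of 3 for Eif4g. Each interval ran from 29.2 to 100%, against 18.8% of all coding genes. Eif4a3, whose product serves in the exon junction complex rather than in initiation, had a fold of 8.28 from 20 fragments over 1.54 (chr11:119299942-119300405, q = 2.75e-12, summit at -61 bp). Eif4a1, the main initiation helicase, had 7.79 from 22 fragments (chr11:69671272-69671750, q = 2.19e-12), but its summit lay 838 bp downstream of the start, in an intron and near the edge of the window. Eif4a2 had 6.87 from 19 fragments at +9 bp. Eif4h and Eif4b, which stimulate the helicase, had folds of 8.74 and 5.54. The Eif4h peak (chr5:134638629-134639602, q = 2.20e-15) held 25 fragments and was the widest in the group at 974 bp.

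The scaffolds of the cap complex had lower peaks. Eif4g3 had a fold of 5.13 from 12 fragments at +700 bp, and Eif4g1 4.48 from 13 fragments at +282 bp of a start that is not that of the gene record. Eif4g2, for a related scaffold without the cap-binding partner site, was the only gene with more than 1 promoter summit. Its peak at chr7:111082672-111083327 had its summit at -38 bp, a fold of 3.43, 16 fragments over a background of 3.95 and q = 0.00279, and its peak at chr7:111082074-111082407 lay at +787 bp with a fold of 3.45, 10 fragments over 2.19 and q = 0.0311. The Eif4e family, which holds the cap itself, divided: Eif4e (fold 5.05, 24 fragments over 3.95) and Eif4e2 (5.50, 15 fragments) were bound, and Eif4e1b and Eif4e3 were not. Among the proteins that sequester or move eIF4E, only the gene of the inhibitor 4E-BP2, Eif4ebp2, was bound, with a fold of 4.04 from 15 fragments at +10 bp, and Eif4ebp1, Eif4ebp3 and Eif4enif1 were not.

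Late initiation and the elongation machinery completed the set. Eif5, which makes eIF2 hydrolyse its GTP, had a fold of 5.10 from 16 fragments at +23 bp. Both genes of the hypusinated factor eIF5A were bound (2 of 2, 15.8 to 100, against 18.8% of all coding genes). Eif5a had a fold of 4.80 from 14 fragments and Eif5a2 a fold of 3.70 from 10 (q = 0.0144). Eif5b and Eif6, which act in joining of the ribosomal subunits, were not bound. In elongation, the eEF1B exchange subunits were bound at 3 of 3 genes (29.2 to 100, against 18.8% of all coding genes). The tRNA carrier genes Eef1a1 and Eef1a2 were not bound (0 of 2, 0 to 84.2), and this interval takes in the 18.8%. Eef1d had a fold of 8.28 from 20 fragments over 1.54 (chr15:75909296-75909602, q = 2.75e-12, summit at -130 bp), Eef1g 3.43 from 16 over 3.95 (chr19:8966999-8967250, q = 0.00279, +154 bp), and Eef1b2 2.70. Eef1e1, which encodes a scaffold protein of the tRNA synthetase complex, and Eef2 had no promoter summit. The nearest summits to Eef1a1 and Eef2, whose products are among the most abundant proteins of the cell, lay 33.3 and 38.9 kb away.

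The lysine methyltransferases that modify eEF1A were bound at 3 of 4 genes (75%, 19.4 to 99.4, against 18.8% of all coding genes). Eef1akmt3 had a fold of 8.24 from 23 fragments over 1.91 (chr10:127041800-127042112, q = 1.39e-13), Eef1akmt2 7.06 from 17 fragments, and Eef1akmt4 5.04 from 14 over 1.98 (chr16:20610593-20610886, q = 2.59e-05). The Eef1akmt3 summit lay 422 bp upstream of the gene's start and 3 bp from that of Mettl1. The Eef1akmt4 summit lay 829 bp upstream and 4 bp from the start of Alg3. Eef1akmt1 was not bound, nor were the eEF2 kinase gene Eef2k and the eEF2 methyltransferase gene Eef2kmt.

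**Figure D2:**
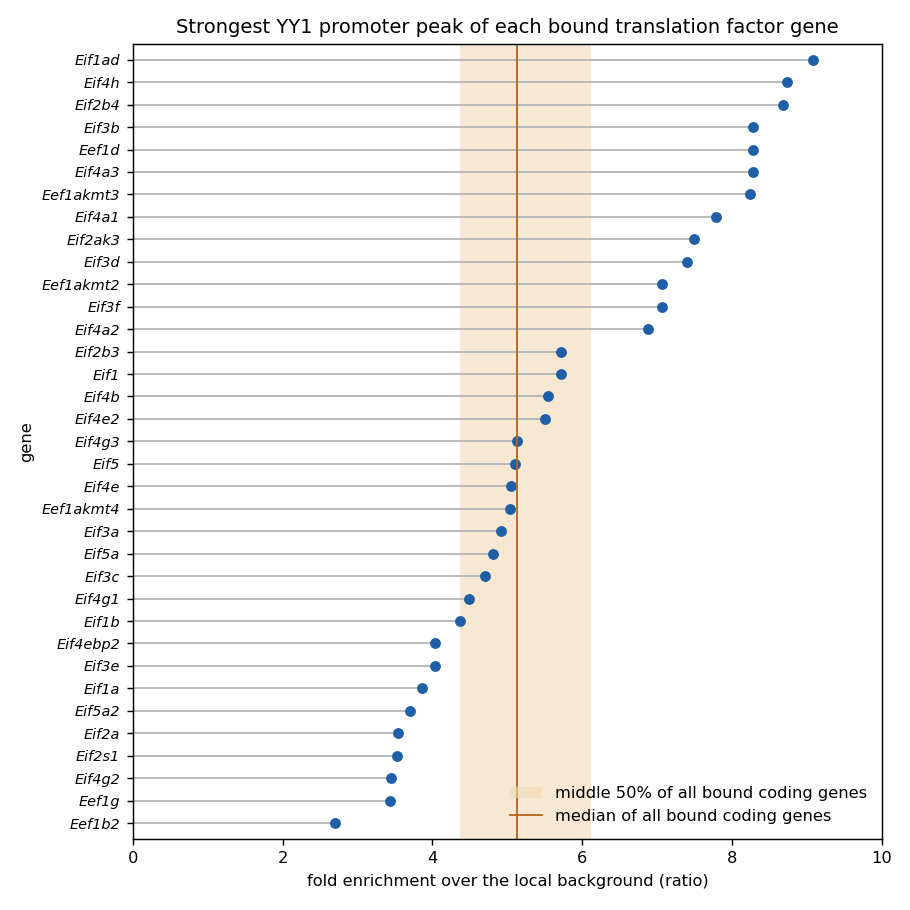
Each point is the strongest promoter peak of a bound translation factor gene, with fold enrichment of YY1 over background on the horizontal axis and the genes on the vertical axis, with a line at the median and a band over the middle 50% of all bound coding genes. Values run from 2.70 (Eef1b2) to 9.07 (Eif1ad) around a median of 5.13.

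The heights of the 35 peaks were more spread than those of bound coding genes at large, with the middle of the distribution from 4.20 to 7.44 in the translation factor genes and from 4.37 to 6.12 in all bound coding genes. The fold depended on the local background as well as on the fragments. Eef1b2 had 23 fragments, more than 93.7% of bound coding genes, but over a background of 7.90, so that its fold of 2.70 exceeded that of only 0.340% of them (chr1:63176587-63177197, q = 0.00741). Eef1akmt3 had the same 23 fragments over 1.91 and a fold of 8.24. The median was 16 fragments against 15 for all bound coding genes, and the median width was 464 bp against 368 bp. Peaks at least 800 bp wide were found at 4 of 35 genes (11.4%), Eif4h, Eif5, Eif1ad and Eif2ak3, against 5.15% of bound coding genes. A q of at most 0.01 was met by the strongest peak of 33 of the 35 (94.3%), against 92.8%.

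**Figure D3:**
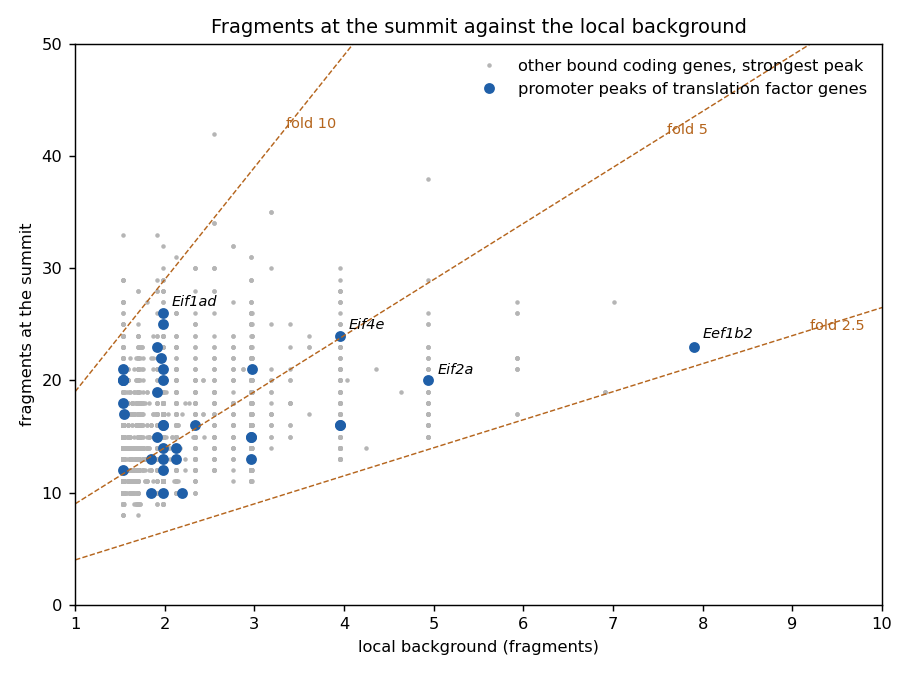
ChIP fragments at the summit (vertical axis) are plotted against the background expected there (horizontal axis, fragments), with dashed lines of equal fold and every promoter peak of translation factor genes drawn over all bound coding genes, of which 9 fall outside the axis limits of 50 fragments and 10 background fragments. Eef1b2 and Eef1akmt3 share 23 fragments at backgrounds of 7.90 and 1.91.

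Summits lay close to the starts. The median distance was 110 bp in the 35 genes and 104 bp in all bound coding genes, 16 of 35 (45.7%) were within 100 bp against 48.8%, and 18 of 35 (51.4%) lay downstream of the start against 48.6%. The genes whose nearest summit lay beyond 500 bp were Eif4a1 at +838 bp, Eef1akmt4 at -829 bp and Eif4g3 at +700 bp, and the second summit of Eif4g2 lay at +787 bp. By annotation, 13 of the 36 promoter summits were upstream of the gene, 12 in a UTR exon, 9 in an intron and 2 in a coding exon.

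**Figure D4:**
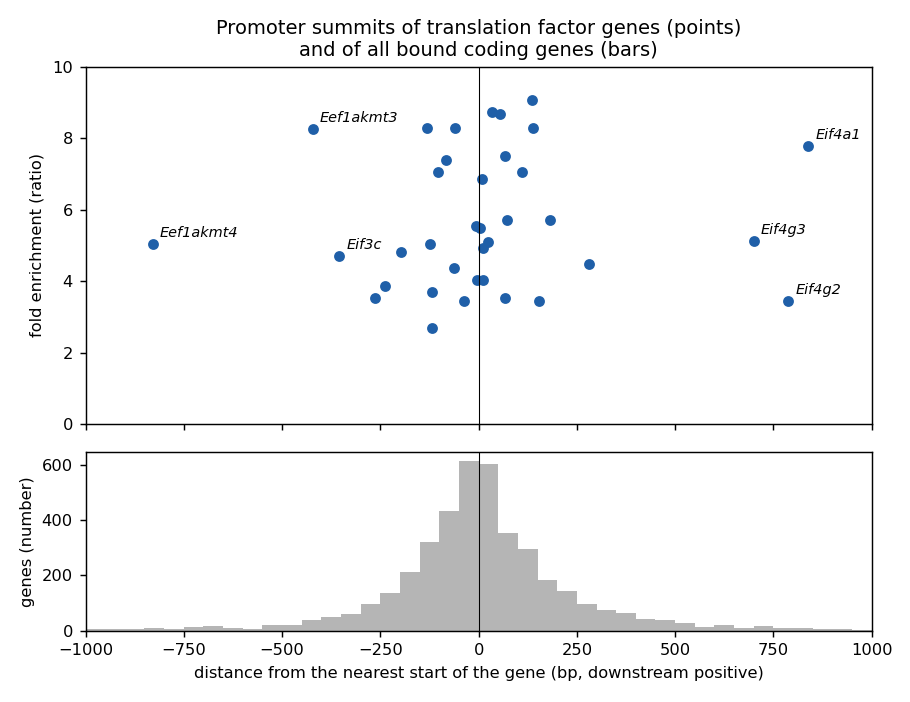
The distance of each promoter summit from the nearest start (horizontal axis, bp, downstream positive) is plotted against fold enrichment for the translation factor genes (points), above a histogram of the same distance in all bound coding genes (number of genes). Most lie near 0, and Eif4a1 (+838 bp) and Eef1akmt4 (-829 bp) are nearest to the edges of the window.

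The unbound genes were mostly far from any peak. The nearest summit lay beyond 10 kb in 29 of 33 and beyond 100 kb in 16, at a median of 85.4 kb. These distances were not measured over all unbound coding genes, so they cannot be read as a trait of this set. The closest to the window was Eif4enif1, for the eIF4E transporter, with a summit 2931 bp upstream that had 58 fragments and a fold of only 1.72. Next came Eif4e1b at 5291 bp, Eif4ebp3 at 6414 bp and Eef2k at 7183 bp, where the summit had 27 fragments and a fold of 5.66. None of the 33 held a summit within its gene body, and this too was not counted over all unbound coding genes. Repeats were more frequent around the unbound starts: a median of 1.93% of 32-base stretches recurred in the genome, against 0.254% at bound genes, and Eif3j2 (39.8%), Eif4e1b (22.5%) and Eif2b5 (19.1%) stood highest among the unbound. Among the bound genes the share was 39.5% at Eif4g1, followed by 15.9% at Eif1, 12.8% at Eif4ebp2 and 11.9% at Eif2b3. The part of repeats in the missing peaks was not tested.

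Several bound genes shared their summit with a neighbour. For 9 of 35 (25.7%) the summit was also within 1000 bp of the start of another protein-coding gene, against 26.0% of all bound coding genes, so that the bound gene cannot be told from the position. In most of them the partner start was the nearer: Mettl1, a tRNA methyltransferase gene, at 3 bp from the summit of Eef1akmt3, Alg3 at 4 bp from that of Eef1akmt4, Serp1 at 5 bp from that of Eif2a, Ndufs1 at 25 bp from that of Eef1b2, Tmed7 at 73 bp from that of Eif1a and Atp6v1d at 82 bp from that of Eif2s1. The translation factor start was nearer at Eif1ad (Banf1 at 271 bp), Eef1d (Tigd5 at 250 bp) and Eif2b4 (Snx17 at 143 bp). In 9 of 10 pairs the genes were transcribed from opposite strands.

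CpG-rich promoters, here those with an observed over expected CpG ratio of at least 0.6 and a GC content of at least 50% in the 500 bp either side of the gene start, were common in the set, 56 of 68 (82.4%) against 44.4% of all coding genes. The set therefore had more of the promoters that YY1 occupied in this list: 36.4% of all CpG-rich coding genes were bound and 4.68% of the others. Within the CpG-rich class 32 of 56 translation factor genes were bound (57.1%, 43.2 to 70.3). Among the other 12 genes, 3 were bound, Eef1akmt2, Eif4g1 and Eif5a, all bound nearest to a start other than that of the gene record, where composition was measured. The median CpG ratio was 0.846 at bound and 0.723 at unbound translation factor genes, both above the 0.430 of unbound coding genes in general. Composition moved with binding, and its part in the bound share was not tested.

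**Figure D5:**
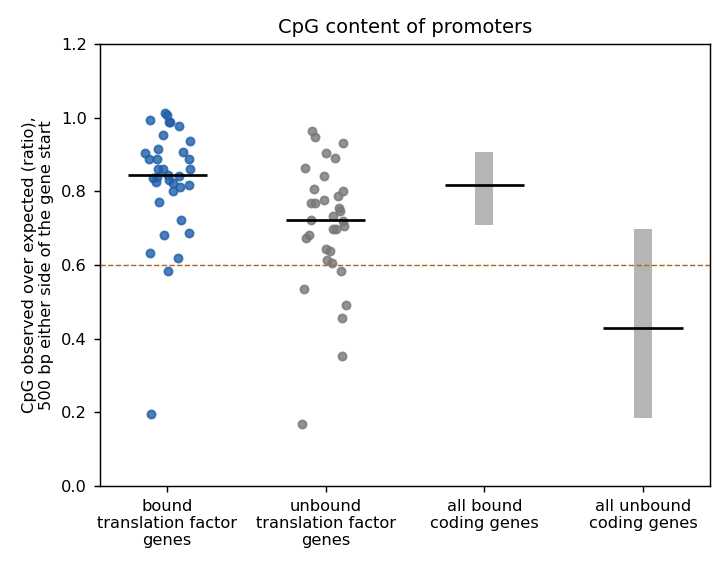
The observed over expected CpG ratio around the start (ratio, no unit) is shown for bound and unbound translation factor genes beside bound and unbound coding genes, as points for single genes, black lines for medians, grey bars for the middle 50% and a dashed line at 0.6. Medians are 0.846, 0.723, 0.818 and 0.430 in that order.

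Other parts of the protein synthesis apparatus gave a scale for these shares. Genes of cytosolic ribosomal proteins were bound at 37 of 82 (45.1%, 34.1 to 56.5), those of mitochondrial ribosomal proteins at 29 of 78 (37.2%, 26.5 to 48.9), and aminoacyl-tRNA synthetase genes at 9 of 34 (26.5%, 12.9 to 44.4). Of 50 further translation genes, covering termination, recycling, poly(A)-binding, mitochondrial factors and the mTOR pathway, 21 were bound (42.0%). Among these Abce1, which recycles ribosomes, had the highest fold of 7.49, the poly(A)-binding protein gene Pabpc1 had 7.04, and Tpt1 had the lowest, 2.53. A further list held 9 translation factors taken from general knowledge as having mRNAs that begin with an oligopyrimidine tract. It was not checked for completeness. Of these, 6 of 9 genes were bound (66.7%, 29.9 to 92.5, against 18.8% of all coding genes). They were Eef1b2, Eef1d, Eef1g, Eif3e, Eif3f and Eif4b, and Eef1a1, Eef2 and Eif3h were not bound. The intervals overlap, and the differences between these groups were not tested.

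The YY1 motif AANATGGC, searched on both strands, was found within 100 bp of 3 of the 36 promoter summits (8.33%, 1.75 to 22.5), against 7.55% of all 3777 promoter summits of coding genes. Within 250 bp it was found at 12 of 36 (33.3%), against 15.8%. The matches are printed with the motif in capitals inside 30 bases of the strand that carries it, from GRCm38, to show how each sits at its gene.
Eef1b2, chr1:63176654-63176683, plus strand: gccgctaagtcAATATGGCggccacggcaa
Eif3e, chr15:43282677-43282706, minus strand: tttcccccggcAAGATGGCggagtacgacc
Eef1akmt4, chr16:20610723-20610752, minus strand: ggtgcactgtcAAGATGGCtgctgggctgc
The match at Eif3e lies 31 bp from the summit and its ATG is the start codon of Eif3e. The match at Eef1akmt4 lies 27 bp from the summit, on the strand of its neighbour Alg3, and its ATG is the start codon of Alg3. The match at Eef1b2 is 39 bp from the summit and is on no start codon.

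The coincidence with start codons was common in the set. Within 100 bp of a start, 12 matches lay near 11 of the 68 genes. In 10 of the 12 the ATG of the motif was the annotated start codon. Near the starts of all coding genes this held for 578 of 1783 matches (32.4%). The difference rests on few matches, which include the X and Y copies Eif2s3x and Eif2s3y, and was not tested. The matches at the bound genes Eif3f and Eif4e, and at the unbound Eef1e1, Eif2b5, Eif2s3x and Eif3h, are printed as examples from both sides of the binding call. The remaining 2 of the 12, at the bound Eif4g3 and upstream of the unbound Eif2s3y, were on no start codon.
Eif3f, bound, chr7:108934418-108934447, plus strand: tctttctcggcAAGATGGCttctccggccg
Eif4e, bound, chr3:138527283-138527312, plus strand: cagatcgatctAAGATGGCgactgtggaac
Eef1e1, not bound, chr13:38658978-38659007, minus strand: agctgggccagAAGATGGCggcggccgcgg
Eif2b5, not bound, chr16:20498900-20498929, plus strand: ggctgcgaagcAAGATGGCagccactgcgg
Eif2s3x, not bound, chrX:94212618-94212647, minus strand: tctctccgagcAAGATGGCtgggggtgagg
Eif3h, not bound, chr15:51865442-51865471, minus strand: gtctggctggaAACATGGCgtcgcgcaagg
At these bound genes the motif lay 119 bp (Eif3f) and 135 bp (Eif4e) from the summit, outside the 100 bp searched there. Near starts the motif was found at 5 of 35 bound genes (14.3%, 4.81 to 30.3) and 6 of 33 unbound genes (18.2%, 6.98 to 35.5), and over all coding genes at 13.2% of bound and 6.55% of unbound. Within 1000 bp of a start it was found at 22 of 35 bound genes (62.9%, 44.9 to 78.5) and 16 of 33 unbound genes (48.5%, 30.8 to 66.5), and the difference was not tested at either distance.

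Of the 21 genes with a fold of at least 5, 1 had AANATGGC within 100 bp of its promoter summit, Eef1akmt4. The core ATGGC alone was within 100 bp of 10 of the 36 summits (27.8%), against 30.6% of all promoter summits of coding genes. The letters CCGGAAG, the core bound by ETS factors, were found at 10 of 36 (27.8%, 14.2 to 45.2) against 13.7%, the CCAAT box at 7 of 36 (19.4%) against 16.5%, the GC box GGGCGG at 23 of 36 (63.9%) against 65.6%, and the NRF1 sequence GCATGCGC at 1 of 36 against 5.43%. All were searched on both strands, ATGGC is contained in AANATGGC, and a match is not evidence of binding. The windows of 101 bases centred on the summits of Eif4a3, Eif3d and Eif5a2 (GRCm38, plus strand) show, of the letters searched, a high peak with a GC box alone, a high peak with the ETS letters, and a low peak with the ETS letters, a GC box and a CCAAT box, each in capitals. These windows are narrower than the search, and Eif3d also held ATGGC outside the bases printed.
Eif4a3, chr11:119300100-119300200: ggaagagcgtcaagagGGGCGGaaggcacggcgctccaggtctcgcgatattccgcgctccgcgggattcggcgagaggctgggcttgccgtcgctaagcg
Eif3d, chr15:77970845-77970945: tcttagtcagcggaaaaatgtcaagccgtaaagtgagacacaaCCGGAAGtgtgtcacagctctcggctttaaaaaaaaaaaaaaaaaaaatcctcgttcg
Eif5a2, chr3:28781107-28781207: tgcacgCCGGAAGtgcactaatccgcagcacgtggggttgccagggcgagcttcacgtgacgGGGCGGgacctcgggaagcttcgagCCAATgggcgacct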

How the data were processed

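YY1 ChIP-seq of MuSCs was analysed from the deposited peak list, with no reads. Per the study's text and the submitters' notes, the authors trimmed reads, mapped them to mm10 with Bowtie2, removed duplicates and called peaks with MACS2 against the background library at a p limit of 0.0001 (versions not given in the sources used here). For every peak the deposited columns give a fold enrichment (a ratio) and, as -log10, its p-value and q-value. A summit is the peak start plus the offset plus 1.

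Fragments, as whole numbers, and the background, which need not be whole, were recovered from fold and p for 4681 of 4681 peaks (tolerance 0.001 in -log10 p, largest difference 0.0003). Genes were those of GENCODE M21 basic on GRCm38 and were bound when a summit lay within 1000 bp of a transcript start. Intervals are exact Clopper-Pearson intervals at 95%. The genes and lists were chosen with earlier results of these data known. All bound genes are named, with full values for the 8 highest and 3 lowest folds, genes with the motif, with several summits or with a shared summit. Coordinates of the Eif1a peak and further sequences are not reported here. Repeats are 32-base stretches found more than once. Other peak limits, windows, start sets, motif windows and motif forms were tried. Scripts used pysam 0.24.0, scipy 1.17.1, matplotlib 3.10.9, pandas 2.3.3 and numpy 2.4.6 in Python 3.11.15, and were tested on simulated data.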

Additional observations from a re-analysis of the deposited data

How the results depend on the processing

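Of 46 alternative values, 39 stayed within the spread or within 1.5 times the count, and 7 moved. Requiring a fold of at least 5 left 21 translation factor genes, 2445 coding genes, 10 other translation genes, a median fold of 7.06 and 1 summit with AANATGGC. Searching 250 bp either side of the summit gave 12 summits with the motif (33.3%, against 15.8% of all 3777 coding promoter summits), and searching the core ATGGC gave 10 (27.8%, against 30.6%). Beside each count of translation factor genes stands the share of all coding genes bound under the same setting. A q of at most 0.01 left 34 translation factor genes (Eif5a2 lost, 17.4%). A window of 500 bp left 32 (Eef1akmt4, Eif4a1 and Eif4g3 lost, 17.7%), and a window of 2 kb left 35 (19.3%). A window from 1000 bp upstream to 100 bp downstream left 28 (Eef1akmt2, Eef1g, Eif1, Eif1ad, Eif3b, Eif4a1 and Eif4g3 lost, 14.6%). With it the median distance was 69.5 bp in place of 110 bp, within the interval of 62 to 139 bp. Starts of the gene record alone left 33 (Eif4g1 and Eif4g3 lost, 17.4%), and overlap in place of the summit 35 (18.9%). With 1 library, no replicate could be left out. No paired analysis was possible because there was 1 YY1 library and 1 background library. A peak needed 8 fragments or more, so weaker occupancy was not detectable at this depth.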
